A study of Mus musculus with 16 samples.

Results

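The genes Ebf1, Pax5, Gata3 and Cebpa encode transcription factors that commit blood progenitors to a lineage, and their chromatin was followed in stem cells that have not yet taken one. Each gene was represented by a fixed window of the mouse build mm9: chr11:44410000-44840000 for Ebf1, chr4:44525000-44740000 for Pax5, chr2:9760000-9820000 for Gata3 and chr7:35890000-35920000 for Cebpa. Every deposited peak or island that touched a window was taken, which gave 217 of the 610361 in the 16 lists: 48 of H3K4me3, 154 of H3K27me3 and 15 of H3K36me3. The windows are 430, 215, 60 and 30 kb long, and all 4 genes had at least 1 peak or island.

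The cells were hematopoietic stem cells from the bone marrow of wild-type C57BL/6 mice, gated as SP-KSL-CD150+. This gate keeps cells that pump out a dye and carry surface markers of long-term stem cells. Mice were 4 months old (young) or 24 months old (old), and age was the contrast of the study. Histone methylation was mapped by chromatin immunoprecipitation and sequencing, in 2 young and 2 old libraries for H3K4me3 and in 3 young and 3 old libraries each for H3K27me3 and H3K36me3. Replicates 1 to 3 were H3K27me3, 4 to 6 were H3K36me3, and 7 and 8 were H3K4me3. Since the labels describe the samples as technical replicates of numbered biological ones, the spread behind each p-value may be technical in part. Sorted cells stand for a pool of stem cells, and marks on different alleles or in different cells of the pool cannot be told apart. The lists hold no gene expression, so the cell type was not checked against markers.

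EBF1 and PAX5 act one after the other in B cell commitment: EBF1 opens B cell genes and activates Pax5, and PAX5 then holds the cell to the B lineage and represses genes of other lineages. GATA3 is needed at several steps of T cell development, and it is also made in stem cells. CEBPA drives progenitors towards granulocytes and monocytes, and in stem cells it restrains the cell cycle. H3K4me3 lies at promoters in use or ready for use, H3K27me3 is the mark of Polycomb repression, and H3K36me3 lies over the bodies of transcribed genes. Promoters that carry H3K4me3 and H3K27me3 together are called bivalent and are typical of developmental regulators that a stem cell holds silent but inducible.

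The promoter sequences of the 4 genes are shown because H3K4me3 and Polycomb both favour CG-rich promoters. They come from RefSeq on GRCm38.p6, not on mm9, so their positions cannot be set against the peaks. All 4 genes were matched, Ebf1 with 2 promoters. Each sequence is 300 bases, read 5′ to 3′ on the strand of the gene, with every CG dinucleotide in capitals. Positions are chr11:44617850-44618149 and chr11:44619978-44620277 (plus strand) for Ebf1 promoters 1 and 2, chr4:44710645-44710944 (minus) for Pax5, chr2:9878551-9878850 (minus) for Gata3 and chr7:35119043-35119342 (plus) for Cebpa.
Ebf1 promoter 1: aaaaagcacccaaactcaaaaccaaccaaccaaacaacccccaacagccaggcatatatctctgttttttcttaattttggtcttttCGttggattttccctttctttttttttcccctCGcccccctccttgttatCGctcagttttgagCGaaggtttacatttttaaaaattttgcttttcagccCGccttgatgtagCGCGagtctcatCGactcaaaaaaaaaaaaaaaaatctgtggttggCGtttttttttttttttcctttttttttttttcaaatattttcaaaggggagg
Ebf1 promoter 2: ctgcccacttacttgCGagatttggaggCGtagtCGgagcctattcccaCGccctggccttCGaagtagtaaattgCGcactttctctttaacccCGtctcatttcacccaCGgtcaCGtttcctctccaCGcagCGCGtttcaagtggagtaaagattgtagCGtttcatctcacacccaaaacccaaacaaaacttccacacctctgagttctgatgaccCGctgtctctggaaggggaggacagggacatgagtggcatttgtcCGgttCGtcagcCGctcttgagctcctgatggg
Pax5 promoter: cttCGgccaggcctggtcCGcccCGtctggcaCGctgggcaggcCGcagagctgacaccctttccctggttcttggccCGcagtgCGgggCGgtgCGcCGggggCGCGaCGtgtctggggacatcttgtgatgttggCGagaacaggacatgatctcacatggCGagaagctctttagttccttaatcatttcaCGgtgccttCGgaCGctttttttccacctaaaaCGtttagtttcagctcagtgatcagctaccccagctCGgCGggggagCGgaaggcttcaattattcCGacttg
Gata3 promoter: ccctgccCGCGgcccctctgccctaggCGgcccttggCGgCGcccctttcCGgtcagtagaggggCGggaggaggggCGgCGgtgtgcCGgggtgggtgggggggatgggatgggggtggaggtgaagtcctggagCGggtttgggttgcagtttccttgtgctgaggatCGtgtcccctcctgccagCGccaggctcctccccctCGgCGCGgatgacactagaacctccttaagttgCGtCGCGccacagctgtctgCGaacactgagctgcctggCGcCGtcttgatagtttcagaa
Cebpa promoter: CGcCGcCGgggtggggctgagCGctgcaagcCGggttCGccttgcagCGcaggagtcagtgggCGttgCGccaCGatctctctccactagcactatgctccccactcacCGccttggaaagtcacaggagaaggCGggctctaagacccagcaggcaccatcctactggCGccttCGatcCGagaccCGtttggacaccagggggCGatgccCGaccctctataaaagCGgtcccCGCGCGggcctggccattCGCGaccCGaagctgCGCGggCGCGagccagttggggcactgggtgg
The Cebpa promoter held the most CG dinucleotides, 29, which is more than 87.1% of the 32851 mouse promoters of the same length, whose median is 7. Pax5 held 23 and Gata3 22, more than 78.5% and 76.9% of promoters. Ebf1 promoter 1 held 9 and promoter 2 held 17, more than 54.2% and 68.6%. The G and C content was 67.3% for Gata3 and Cebpa, 59% for Pax5, and 36.7% and 53% for Ebf1 promoters 1 and 2. On either strand the TATA box letters TATAAA occurred in Cebpa alone of the 4 genes and in 13.6% of all promoters. The E-box CANNTG occurred 2 times in Ebf1 promoter 2 and 1 time each in Pax5, Gata3 and Cebpa, and in 72.3% of all promoters. Such matches describe the letters of these stretches, and their use by a factor was not measured.

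The depth of the libraries is unknown, since the lists give no read counts. The H3K4me3 lists held 16258 to 19923 peaks, the H3K27me3 lists 17752 to 47197 islands and the H3K36me3 lists 6399 to 84437 peaks. A library each of H3K27me3 and H3K36me3 stood apart and touches the values that follow. H3K27me3 young replicate 1 held 46988 islands over 168.9 Mb but none in any of the 4 windows, and its islands touched 1.68% of H3K4me3 regions, against 14.9% to 17.8% for the other 5 H3K27me3 libraries. H3K36me3 young replicate 4 held 6399 peaks over 5.902 Mb, against 41.55 to 137.8 Mb in the other 5. H3K27me3 values are therefore given first without young replicate 1 and H3K36me3 values with and without young replicate 4.

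The Pax5 window was the most heavily covered by H3K27me3. Islands covered 132400 and 118800 bp in young replicates 2 and 3, and 123200, 161600 and 115400 bp in old replicates 1, 2 and 3. This is 61.6% and 55.3% of the window at the young age and 57.3%, 75.2% and 53.7% at the old age. The ages overlapped, with old replicate 2 highest and old replicate 3 lowest. The mean of these 5 libraries, 60.6% of the window, exceeded that of 99.3% of genome windows of 215 kb, whose median was 1.9%. The highest-scoring Pax5 island ranked above 99.3% to 99.8% of the islands of its own list in all 5 libraries, by the authors' deposited score. Mean coverage was 126 ± 9.62 kb (SD, n = 2) in young and 133 ± 24.7 kb (SD, n = 3) in old libraries, a difference of 7.8 kb (exact two-sided permutation test, p = 0.9). With young replicate 1, which had 0 bp here, the young mean was 83.7 ± 72.8 kb (SD, n = 3) and the exact permutation p was 0.5.

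Islands over Pax5 formed 6 merged regions, where a merged region joins peaks of any library of a mark that overlap or abut. Of these, 5 were held by each of the 5 libraries. Lengths given here count whole merged regions, with the parts outside the window. The best-covered, chr4:44424001-44582600, runs out of the window on its left side and lies mostly outside it. It held 125600 and 112800 bp in young replicates 2 and 3 and 80400, 134200 and 104000 bp in the old libraries. The region chr4:44687001-44766800, which runs out on the right side, held 67000 and 56200 bp in young and 57800, 72200 and 61600 bp in old libraries. It was also the one region in which young replicate 1 had an island, of 3400 bp outside the window. Between them lay chr4:44588601-44617200 with 15800 and 16600 bp young and 15600, 14600 and 10600 bp old, and chr4:44629201-44652600 with 8400 and 16400 bp young and 16800, 16800 and 15600 bp old. The region chr4:44653401-44684000 held 13200 and 9400 bp in young and 17800, 26400 and 13800 bp in old libraries (limma with all 6 libraries, adjusted p = 0.552). Across the genome 8.42% of the 71163 regions of these 5 libraries were held by all 5, and 62.9% by 1.

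H3K4me3 at Pax5 was small beside this. It covered 2171 and 1657 bp in young replicates 7 and 8 and 1423 and 1496 bp in old replicates 7 and 8. Each library had 2 peaks, though not at the same sites in all. Both old libraries lay below both young ones, with means of 1914 ± 363 bp (SD, n = 2) and 1459.5 ± 51.6 bp (SD, n = 2). The exact permutation p was 0.33, the smallest that 2 against 2 libraries allow, and 8.83% of the 6356 windows of this length with H3K4me3 in at least 2 libraries had the same order. The difference of -454.5 bp was -197.5 bp without young replicate 7 and -711.5 bp without young replicate 8. The peak held by all 4 libraries, chr4:44676495-44677925, covered 1431 and 1128 bp in young and 955 and 909 bp in old libraries, a log2 change of -0.38 (limma, adjusted p = 0.977). The peak chr4:44716851-44717591 covered 740 and 529 bp in young libraries, 468 bp in old replicate 7 and 0 bp in old replicate 8. Both of these peaks lay wholly under H3K27me3 in each of the 5 libraries. The other peak of old replicate 8, chr4:44725320-44725906, covered 587 bp and was held by no other library. The strongest Pax5 peak ranked low in its list, above 19.9% and 26.7% of peaks in young and 31.6% and 38.3% in old libraries.

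**Figure D1:**
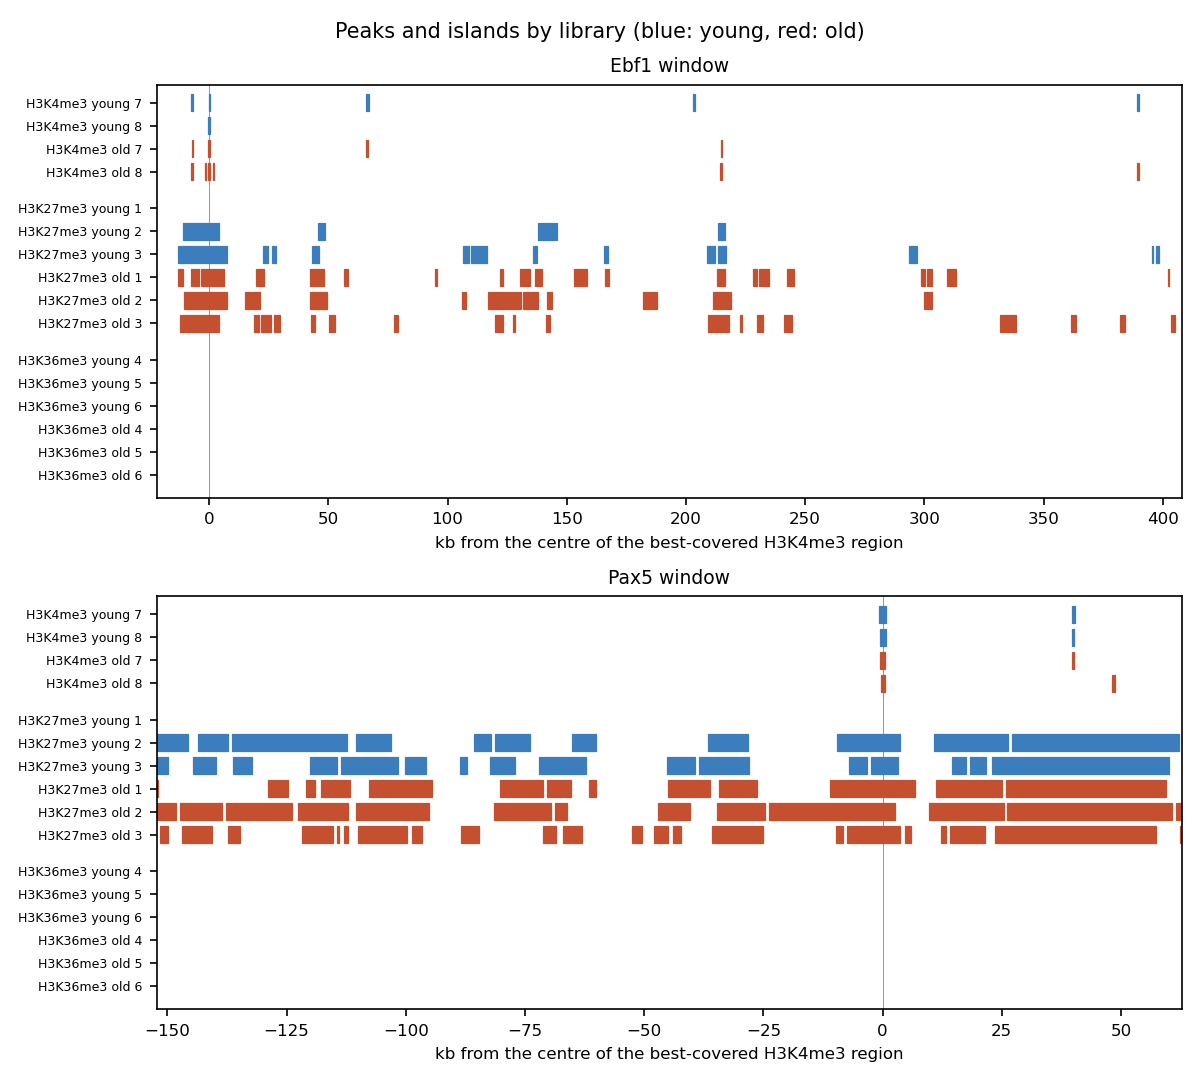
Peaks and islands of the Ebf1 and Pax5 windows in each library. The horizontal axis is the distance in kb from the centre of the best-covered H3K4me3 region of the window, each line is 1 library grouped by mark, and bars are peaks or islands in blue for young and red for old. H3K27me3 fills 53.7% to 75.2% of the Pax5 window in 5 libraries and none of it in young replicate 1, and H3K36me3 is absent from both windows.

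Ebf1 was the only one of the 4 windows in which every old H3K27me3 library lay above every young one. Islands covered 29200 and 51800 bp in young replicates 2 and 3, and 62800, 72200 and 63600 bp in old replicates 1, 2 and 3. This is 6.79% and 12% of the window in young and 14.6%, 16.8% and 14.8% in old libraries. Mean coverage was 40.5 ± 16 kb (SD, n = 2) in young and 66.2 ± 5.21 kb (SD, n = 3) in old libraries, a difference of 25.7 kb and a ratio of 1.63. The exact two-sided permutation p was 0.1, the smallest that 2 against 3 libraries allow, so the test could not reach 0.05. All old libraries also lay above all young ones in 17.2% of the 5344 genome windows of 430 kb with islands in at least 2 libraries. The median difference over all such windows was 2.07 kb. With young replicate 1 the young mean was 27 ± 26 kb (SD, n = 3) and the exact permutation p was again 0.1.

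The same order at Ebf1 was found under 3 other ways of counting. Within lists cut to the same number of top-scoring islands, Ebf1 coverage was 29200 and 33800 bp in young replicates 2 and 3 and 42400, 72200 and 41000 bp in the old libraries (exact permutation p = 0.3). Per Mb covered by the whole list it was 237 and 290 bp in young and 401, 451 and 373 bp in old libraries. With a stricter score threshold it was 26000 and 39600 bp in young and 46400, 46800 and 48000 bp in old libraries.

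The added length lay outside the best-covered Ebf1 region. That region, chr11:44418801-44439400, held 15200 and 20400 bp in young replicates 2 and 3 and 15200, 18200 and 16400 bp in the old libraries. In the rest of the window, young replicates 2 and 3 had 14000 and 31400 bp, and the old libraries had 47600, 54000 and 47200 bp. Means were 17800 ± 3677 bp (SD, n = 2) and 16600 ± 1510 bp (SD, n = 3) in the region, and 22700 ± 12303.7 bp (SD, n = 2) and 49600 ± 3816 bp (SD, n = 3) outside it. The ratio of old to young was 0.933 in the region and 2.19 outside it. This division was made after the values were seen and is given without a test.

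Ebf1 islands formed 28 merged regions, of which 17 were held by 1 library and 4 by each of the 5 libraries. Besides the best-covered one these were chr11:44474201-44481200 with 3200 and 2600 bp young and 6000, 6800 and 1400 bp old, and chr11:44548801-44577800 with 7800 and 1800 bp young and 8400, 22400 and 5800 bp old. The last was chr11:44640801-44651000 with 3000 and 6800 bp young and 3400, 7800 and 8800 bp old. The region chr11:44447001-44457800 was held by young replicate 3 with 2200 bp and by the old libraries with 3400, 6200 and 6400 bp. Old libraries alone held 16 of the 28 regions, young libraries alone 4, and both ages 8. That is 57.1%, 14.3% and 28.6%, and over all 71163 regions of these 5 libraries the shares were 47.2%, 24.5% and 28.3%. Both counts rest on 3 old libraries and 2 young ones. No Ebf1 region was held by all 3 old libraries and neither young one. Of the 16 regions of old libraries, 3 were held by 2 of them and the others by 1, so these islands lay at different places in different old libraries.

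H3K4me3 at Ebf1 was scarce and varied more within an age than between ages. It covered 3822 and 793 bp in young replicates 7 and 8 and 2092 and 3451 bp in old replicates 7 and 8, as 5, 1, 5 and 6 peaks. The young libraries were the highest and the lowest of the 4. The difference of means was 464 bp, with SDs of 2141.8 bp (young, n = 2) and 961 bp (old, n = 2) and the exact permutation p was 1. The mean, 0.591% of the window, was near the genome median of 0.516% for windows of 430 kb. The 1 peak held by all 4 libraries, chr11:44431350-44432464, covered 771 and 793 bp in young and 559 and 831 bp in old libraries. It lay inside the best-covered H3K27me3 region and wholly under islands of all 5 libraries.

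The other Ebf1 peaks came and went. The peak chr11:44424480-44425048 covered 474 and 0 bp in young and 422 and 472 bp in old libraries, and chr11:44497860-44498789 covered 930 and 0 bp in young and 470 and 0 bp in old libraries. The peak chr11:44821126-44821927 covered 802 and 0 bp in young and 0 and 617 bp in old libraries. The peak chr11:44646394-44647155 was absent from both young libraries and covered 641 and 532 bp in old replicates 7 and 8, a log2 change of 1.97 (limma, unadjusted p = 0.0103, adjusted p = 0.348). Over the genome 3.83% of the 20660 H3K4me3 regions were likewise in both old libraries and neither young one. Of the Ebf1 peaks named here, the first and the last lay wholly under H3K27me3 in all 5 libraries, and the middle pair under none. The strongest Ebf1 peak ranked above 13.1% to 20% of the peaks of its list. At Ebf1 and Pax5 no H3K4me3 peak reached the median score of its list in any library.

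**Figure D2:**
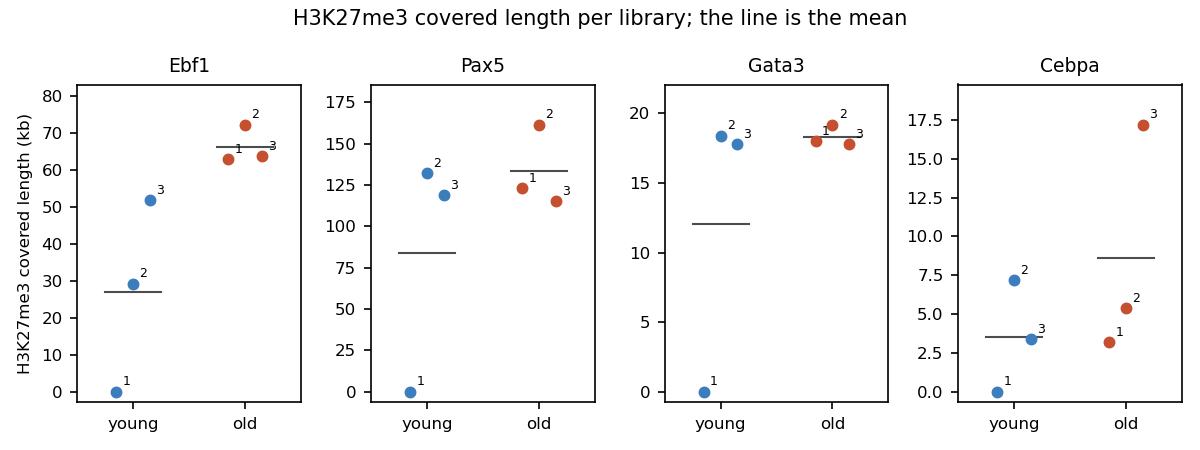
Length covered by H3K27me3 islands in each window, in kb, for young (blue) and old (red) libraries. Points are libraries with their replicate numbers and horizontal lines are the means of all 3 libraries of an age. Young replicate 1 is at 0 in every window, and at Ebf1 the old libraries, at 62.8 to 72.2 kb, lie above the young ones, at 0 to 51.8 kb.

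Gata3 carried the widest H3K4me3 of the 4 genes. H3K4me3 covered 5272 and 7108 bp in young replicates 7 and 8 and 9872 and 13368 bp in old replicates 7 and 8, which is 8.79%, 11.8%, 16.5% and 22.3% of the window. Both old libraries lay above both young ones, as 6 and 7 peaks against 2 and 4. Both old H3K4me3 lists were also longer, at 18675 and 19923 peaks against 16314 and 16258. With lists cut to the same number of top-scoring peaks, the difference at Gata3 was 4895 bp, against 5430 bp with all peaks. Means with all peaks were 6190 ± 1298.2 bp (SD, n = 2) and 11620 ± 2472 bp (SD, n = 2), a ratio of 1.88. The exact permutation p was 0.33, the smallest possible, and 17.5% of the 11794 windows of 60 kb with H3K4me3 in at least 2 libraries had the same order. The window mean, 14.8%, exceeded that of 99.7% of all windows of 60 kb. Scores reached 3100 in all 4 libraries, a ceiling that 47.69% to 59.71% of the peaks of these lists reached.

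The Gata3 peaks had a long core and shorter flanking peaks. The core, chr2:9795799-9802221, covered 4463 and 4803 bp in young and 4842 and 6423 bp in old libraries, and its mean exceeded that of 99.2% of the 20660 H3K4me3 regions of the genome. Its log2 change was 0.26 (limma, adjusted p = 0.979). The rest of the window had 809 and 2305 bp in young replicates 7 and 8 and 5030 and 6945 bp in old replicates 7 and 8. Means in the core were 4633 ± 240.4 bp (SD, n = 2) and 5632.5 ± 1118 bp (SD, n = 2), a ratio of 1.22, and in the rest 1557 ± 1058 bp (SD, n = 2) and 5987.5 ± 1354 bp (SD, n = 2), a ratio of 3.85. This division, too, was made after the values were seen and has no test. Among peaks that scored at or above the median of their list, the core alone remained in each library, so the difference between ages in the whole window was 999.5 bp, against 5430 bp with all peaks.

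The flank of Gata3 on the side of higher coordinates held 2 recurrent peaks. The peak chr2:9810357-9811971 covered 809 and 603 bp in young and 1500 and 1468 bp in old libraries, a log2 change of 0.90 (limma, unadjusted p = 0.0107, adjusted p = 0.348). The peak chr2:9803713-9806388 covered 0 and 1065 bp in young and 2440 and 1965 bp in old libraries, a log2 change of 2.25 (limma, adjusted p = 0.73). On the other side, chr2:9793334-9795380 covered 0 and 637 bp in young and 460 and 2047 bp in old libraries. The peak chr2:9790242-9791096 was absent from both young libraries and covered 630 and 855 bp in old libraries, a log2 change of 2.23 (limma, unadjusted p = 0.00561, adjusted p = 0.348). Over the genome 3.83% of the 20660 H3K4me3 regions were held by both old libraries and neither young one. Old libraries alone held 18.2% of all regions and young libraries alone 2.08%.

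H3K27me3 at Gata3 was a single island that covered a nearly constant part of the window in all libraries but young replicate 1. Within the window it covered 18400 and 17800 bp in young replicates 2 and 3 and 18000, 19200 and 17800 bp in old replicates 1, 2 and 3, or 29.7% to 32% of the window. Means were 18.1 ± 0.424 kb (SD, n = 2) and 18.3 ± 0.757 kb (SD, n = 3), and the difference of 0.233 kb was smaller than either SD (exact permutation p = 0.9). With young replicate 1 the young mean was 12.1 ± 10.5 kb (SD, n = 3) and the exact permutation p was 0.5. Whole islands measured 20200 and 17800 bp in young replicates 2 and 3 and 21400, 22200 and 17800 bp in old replicates 1, 2 and 3. Those of young replicate 2 and old replicates 1 and 2 ran past the window. Clipping at the window edge therefore made the covered lengths more alike than the islands were. The island ranked above 97.3% to 99.3% of the islands of its list.

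The Gata3 island began where the H3K4me3 core ended. The core peak ended at position 9801815 or 9802112 in young and 9802189 or 9802221 in old libraries, a spread of 406 bp. The island began at 9801601 in both young libraries and at 9802001, 9800801 and 9802201 in the old ones, a spread of 1400 bp on a grid of 200 bp. Islands therefore covered 9.67% of the core region in each young library and 3.44%, 22.1% and 0.327% in the old ones. The peaks at chr2:9803713-9806388 and chr2:9810357-9811971, beyond this border, lay wholly under the island in all 5 libraries. The peaks at chr2:9790242-9791096 and chr2:9793334-9795380, on the near side of the core, lay under none.

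Gata3 was also the only one of the 4 windows with H3K36me3. It covered 0, 1472 and 7044 bp in young replicates 4, 5 and 6 and 1581, 1336 and 2675 bp in old replicates 4, 5 and 6. The ages overlapped, with young libraries both lowest and highest. Means were 2838.7 ± 3715.6 bp (SD, n = 3) and 1864 ± 713 bp (SD, n = 3), and the exact permutation p was 0.9; without young replicate 4 the young mean was 4258 ± 3940 bp (SD, n = 2; exact permutation p = 0.3). Without young replicate 6 the direction turned, and old libraries were higher by 1128 bp. All H3K36me3 peaks lay at lower coordinates than the H3K27me3 island, at or beyond the opposite end of the core. The most recurrent, chr2:9783779-9785396, covered 0, 432 and 851 bp in young and 1581, 1336 and 1172 bp in old libraries. Its log2 change was 1.61 (limma, adjusted p = 0.911), and 0.93 without young replicate 4. The peak chr2:9795552-9796983, at the edge of the core, covered 0, 687 and 1432 bp in young and 0 bp in all old libraries (limma log2 change -1.73, adjusted p = 0.911). The peak chr2:9779315-9780765 covered 0, 353 and 1322 bp in young and 0, 0 and 904 bp in old libraries, and chr2:9785945-9787392 was held by 1 library of each age.

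No H3K36me3 peak touched the Ebf1, Pax5 or Cebpa window in any of the 6 libraries. The same was true of 25% of all windows of 430 kb, 40.7% of those of 215 kb and 73.5% of those of 30 kb, so the absence over the long Ebf1 window is the less common one.

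**Figure D3:**
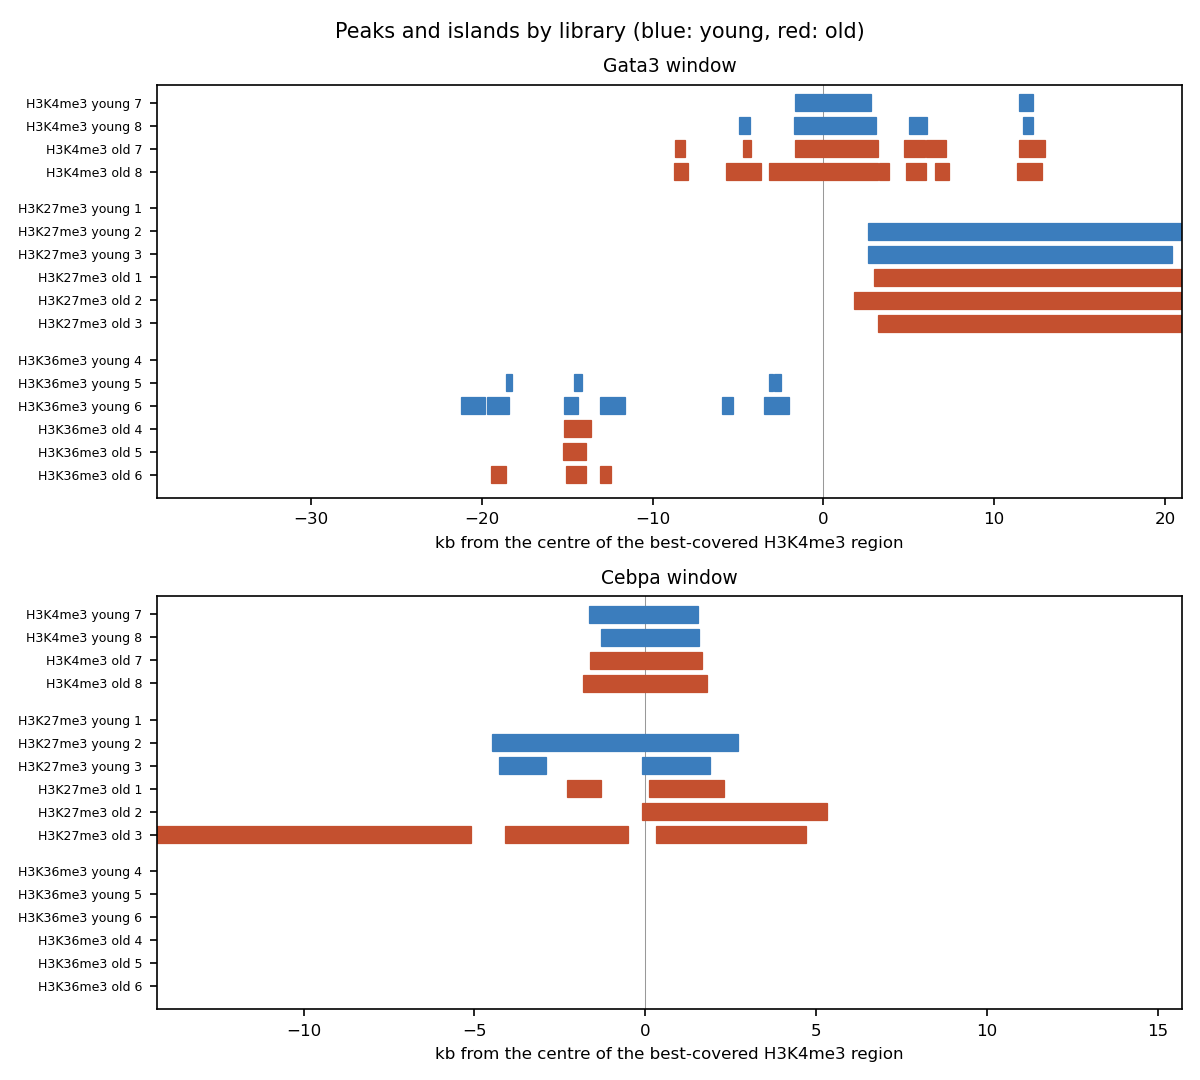
Peaks and islands of the Gata3 and Cebpa windows in each library. The horizontal axis is the distance in kb from the centre of the best-covered H3K4me3 region of the window, each line is 1 library grouped by mark, and bars are peaks or islands in blue for young and red for old. At Gata3 the H3K27me3 island starts at the right end of the H3K4me3 core in 5 libraries, and at Cebpa 1 H3K4me3 peak is present in all 4 libraries.

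Cebpa had the most regular H3K4me3. A single peak, chr7:35902479-35906105, covered 3189 and 2856 bp in young replicates 7 and 8 and 3263 and 3627 bp in old replicates 7 and 8. Both old libraries lay above both young ones, with means of 3022.5 ± 235 bp (SD, n = 2) and 3445 ± 257 bp (SD, n = 2), a ratio of 1.14 (exact permutation p = 0.33, the smallest possible). The difference of 422.5 bp was 256 bp without young replicate 8 and 240.5 bp without old replicate 8. The same order held in 17.2% of the 14621 windows of 30 kb with H3K4me3 in at least 2 libraries. The log2 change of the peak was 0.18 (limma, adjusted p = 0.977). Its mean length exceeded that of 95.2% of H3K4me3 regions. Its score was 3100 in all 4 libraries, the ceiling that 47.69% to 59.71% of H3K4me3 peaks reached.

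H3K27me3 at Cebpa overlapped between the ages. It covered 7200 and 3400 bp in young replicates 2 and 3 and 3200, 5400 and 17200 bp in old replicates 1, 2 and 3, so old libraries were both lowest and highest. Means were 5.3 ± 2.69 kb (SD, n = 2) and 8.6 ± 7.53 kb (SD, n = 3), a difference of 3.3 kb (exact permutation p = 0.9). Young replicate 1 had 0 bp here, and with it the young mean was 3.53 ± 3.6 kb (SD, n = 3; exact permutation p = 0.5). Over all 6 libraries the difference was 5066.7 bp, and without old replicate 3 it was 767 bp, both with young replicate 1 kept. With young replicate 1 and old replicate 3 both left out, 7200 and 3400 bp in young stood against 3200 and 5400 bp in old libraries. The old libraries were then not higher. The region chr7:35899801-35909600 held 7200 and 3400 bp in young and 3200, 5400 and 8000 bp in old libraries, and lay over 100% and 52.5% of the Cebpa H3K4me3 region in young and 61.4%, 52.5% and 77.9% in old libraries. The region chr7:35885601-35899200 held 2200 and 3400 bp in young and 1200, 0 and 9400 bp in old libraries, and of these only the island of old replicate 3 reached into the window. The highest-scoring Cebpa island ranked above 60.3% to 90.8% of the islands of its list, lower than the highest-scoring island of each of the other 3 genes in every one of the 5 libraries.

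**Figure D4:**
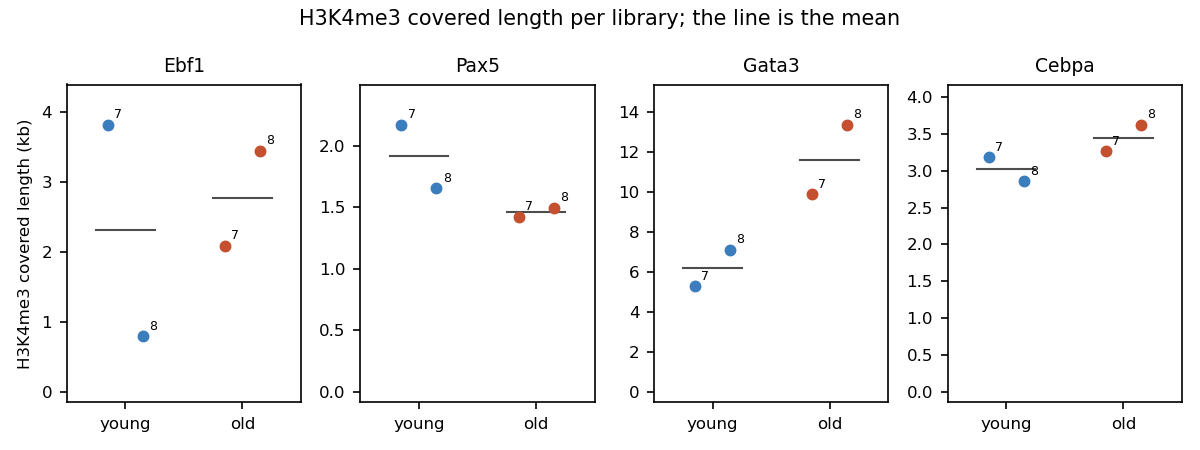
Length covered by H3K4me3 peaks in each window, in kb, for young (blue) and old (red) libraries. Points are libraries with their replicate numbers and horizontal lines are the means of the 2 libraries of an age. At Gata3 the old libraries, at 9.872 and 13.37 kb, lie above the young ones, at 5.272 and 7.108 kb, while at Ebf1 the ages overlap.

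H3K4me3 and H3K27me3 lay together at all 4 genes. Of the 13 H3K4me3 regions held by at least 2 libraries, 9 were touched by islands of all 5 H3K27me3 libraries, 7 of them over their whole length, and 4 were touched in none. Over the genome 11.9% of the 17307 such regions were touched in all 5. The regions wholly under islands were 3 of 5 at Ebf1, both at Pax5 and 2 of 5 at Gata3, while the Cebpa peak was covered in part in 4 of the 5 libraries. Peaks and islands were called in separate libraries, so the overlap does not show both marks on the same nucleosomes.

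Tested region by region over the genome, no region of the 4 windows passed an adjusted p of 0.05. With limma on log2(bp covered + 200), 0% of 17307 H3K4me3, 0% of 30998 H3K27me3 and 0% of 45189 H3K36me3 regions were called, with 1253, 1368 and 257 at an unadjusted p under 0.05. Within the windows, 13 H3K4me3 regions were tested. A limma unadjusted p under 0.05 was found for 3, each higher in old libraries, against 7.24% of regions over the genome. Of these 3, chr11:44646394-44647155 and chr2:9790242-9791096 had 0 bp in both young libraries. They passed the filter through the old group alone, so they could only be higher in old libraries. Of the 13, 8 were higher and 5 lower in old libraries, with a median log2 change of 0.26, against 0.01 over all tested regions. Of 19 H3K27me3 regions, 12 were higher and 7 lower in old libraries without young replicate 1, with a median log2 change of 0.06 against 0.00 over all regions. With that library 17 were higher and 1 was lower, with a median of 2.07 against 0.48. Of 4 H3K36me3 regions, 1 was higher and 3 were lower, with a median of -0.50 against 0.81 over all regions. Without young replicate 4 1 was again higher and 3 were lower, with a median of -1.12 against 0.06.

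Calls at single regions changed with the libraries used. Without old replicate 2, limma called 2766 H3K27me3 regions of the genome, or 9.53% of 29028, with 2762 of them higher in old libraries. In the windows it called 2 of 17, a share near that of the genome. These were chr11:44660001-44666600 and chr11:44673201-44677200 in the Ebf1 window, with log2 changes of 4.30 and 4.00 and adjusted p of 0.0425 and 0.0411. That fit keeps young replicate 1, and all 3 young libraries had 0 bp in both regions, as did old replicate 2. Both regions thus passed the filter through the old group alone. Old replicates 1 and 3 had 5800 and 2400 bp in the former and 3000 bp each in the latter. Leaving out any 1 of the H3K4me3 libraries gave 16 to 94 calls over the genome. Without young replicate 8 there were 16 calls, 0.0943% of 16963, and 1 of them was the Gata3 peak chr2:9803713-9806388, with a log2 change of 3.58 (adjusted p = 0.0114). Young replicate 8, the library left out, was the only young library with this Gata3 peak, at 1065 bp. The fit therefore set 0 bp in young replicate 7 against 2440 and 1965 bp in old replicates 7 and 8. The peak passed the filter through the old group alone, and the pseudocount of 200 bp set its young value. This call therefore cannot decide whether the ages differ at the peak. In all fits without 1 H3K4me3 library, the age left with 1 library is assumed to vary like the other age.

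**Figure D5:**
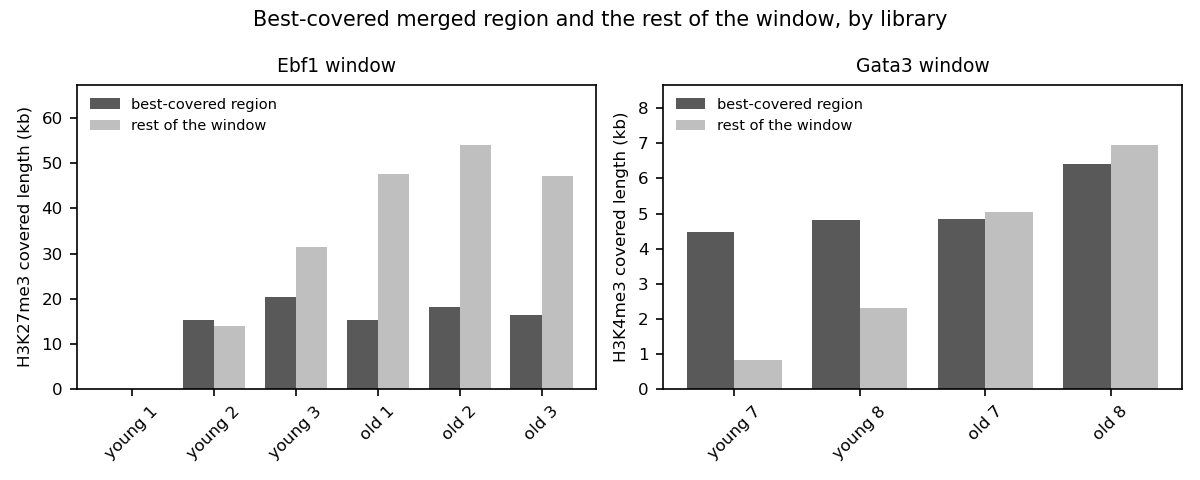
Length covered in the best-covered merged region (dark bars) and in the rest of the window (light bars), in kb, for H3K27me3 at Ebf1 and H3K4me3 at Gata3. Each pair of bars is 1 library and bars start at 0. The light bars at Ebf1 stand at 47.2 to 54 kb in old libraries and at 0 to 31.4 kb in young ones, with young replicate 1 at 0. The dark bars at Ebf1 overlap between ages. The division was made after the values were seen, and its counterpart in other genome windows was not counted.

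Taking the share of window covered over all 16 libraries as a profile, Gata3 and Cebpa were the closest pair, with a Euclidean distance of 45.1 percentage points. Ebf1 lay at 50.4 from Cebpa and 51.6 from Gata3. Pax5 stood farthest from the others, at 76.6 from Gata3, 95.9 from Cebpa and 108 from Ebf1, the largest distance being between the 2 B cell factors. The windows differ in length and in how much flanking sequence they hold, and the shares carry that difference.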

How the data were processed

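Peak lists of 3 histone marks in 16 libraries were used, 1 list per library. The tools were CASAVA 1.4, SICER and MACS and the build was mm9, per the submitters' processing notes. For the aligner, the thresholds and the control libraries, nothing was given in the sources used here. H3K27me3 lists had the layout of SICER islands on a grid of 200 bp, the others that of MACS peaks. The score of each peak was used as the authors deposited it, with no unit stated, to rank peaks within a list. Read depth is unknown, so no counting error could be given, and covered length moves with depth and enrichment.

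Peaks were clipped to each window and their covered bp summed per library. Ages were compared with an exact two-sided permutation test of the difference in means, which allows no p below 0.1 (H3K27me3 and H3K36me3) or 0.33 (H3K4me3). Peaks of a mark that shared at least 1 bp or abutted were merged over the genome. Regions covered in at least 2 libraries were tested with limma 3.58.1 (R 4.3.3) on log2(bp + 200), with a trend, Benjamini-Hochberg adjustment over all regions and a threshold of 0.05, after a check on simulated data. The genome was tiled into windows of each length for comparison. Python 3.11.15, numpy 2.4.6, pandas 2.3.3 and scipy 1.17.1 were used.

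All 4 genes are named, with each merged region held by at least 2 libraries, or the 5 best covered where a window had over 10. The genes, windows and lists were chosen with earlier results of these data known. Annotation of mm9 was not used here, so no peak is assigned to a promoter and no other gene of these pathways was located. Alternatives left out each library, changed the threshold, the number of peaks, the scaling, the merging, the pseudocount and the filter, and used a replicate block.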

Additional observations from a re-analysis of the deposited data

How the results depend on the processing

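The difference in covered length kept its direction under 59 of 64 alternatives for H3K27me3, 34 of 40 for H3K4me3 and 8 of 13 for H3K36me3, over the windows that hold the mark. These counts were fixed in part, since the replicate block repeats the main difference by construction. Most H3K27me3 alternatives also keep young replicate 1, which is at 0 bp in every window and lowers the young mean. No window could pass 0.05 under any alternative, so the tests say nothing of stability. With a stricter threshold, the median score of the list, the H3K4me3 difference was 0 bp at Ebf1 and at Pax5, where no peak was left, and 999.5 bp at Gata3. H3K27me3 at Gata3 differed by 0 bp within title number 20. The H3K27me3 difference at Ebf1 kept its direction under every alternative run. The following differences, old minus young, turned, and the cause was not tested. H3K4me3 at Ebf1 was -1081 bp with an equal number of peaks, -1730 bp within title number 18 (a number in the sample titles that the labels do not explain), and -1050.5 to 1978.5 bp with 1 library left out. H3K27me3 was -3400 bp at Pax5 within title number 20 and -1800 bp at Cebpa within title number 18. Per Mb of list and without young replicate 1, an alternative chosen after seeing the data, it was -46.4 bp at Pax5 and -11.5 bp at Gata3. H3K36me3 at Gata3 was 398 bp with a stricter threshold and also with an equal number of peaks, 1581 bp within title number 16, 1203 bp within title number 18, and -2394 to 1128 bp with 1 library left out.

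Limma calls over the genome ranged from 16 to 94 for H3K4me3 and 0 to 2766 for H3K27me3 with 1 library left out. The log2 change of the best-covered H3K4me3 region at Ebf1 ranged over -0.37 to 0.07. For the best-covered H3K27me3 region it ranged over -0.09 to 3.26 at Ebf1 and -0.20 to 4.45 at Pax5. Both H3K27me3 minima were without young replicate 1, and the Pax5 region lies mostly outside the window.

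Correlations were computed to check the pairing of libraries. Those of same-numbered libraries were 0.00 for both H3K4me3 pairs, 0.02 to 0.14 for H3K27me3 and -0.03 to 0.06 for H3K36me3. Those of differently numbered libraries were -0.15 to 0.05 for H3K27me3 and -0.06 to 0.04 for H3K36me3. These values do not measure how far the lists overlap, since 70.1% of the 20660 H3K4me3 regions were held by all 4 libraries. Libraries with the same replicate number share a title number in some pairs only. With a replicate block, limma made 0 calls for each mark, and the exact sign permutation p of the H3K27me3 difference at Ebf1, 39200 bp over all libraries, was 0.25, the smallest that 3 pairs allow. Centring each library moved the H3K27me3 regions at an unadjusted p under 0.05 from 1178 of 1368 higher in old libraries to 52 of 1533, and the H3K36me3 regions from 252 of 257 to 401 of 3202.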
